A study of Homo sapiens with 2 samples.

Results

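The spindle checkpoint and the regulators of the anaphase-promoting complex (APC/C) were examined in HepG2 cells treated with hawk tea extract (HTE) as 10 genes, BUB1, BUB1B, BUB3, MAD1L1, MAD2L1, TTK, CDC20, FBXO5, UBE2C and PTTG1. The list was set by gene function, with earlier results of these data known. Every probe whose RefSeq transcript belongs to 1 of them was taken, which gave 11 probes for 9 of the 10 genes, out of 50599 probes on the array. UBE2C, the ubiquitin-conjugating enzyme that starts chains for the APC/C, had no probe matched in this way and was not analysed here. The cells, unmodified in both groups, were of HepG2, a cell line derived from a human liver tumour. The control was 1 culture given dimethyl sulfoxide (DMSO), the solvent of HTE, for 24 h, and the treated sample was 1 culture given HTE, an ethanol extract of hawk tea leaves, for 24 h. The sample labels give an HTE dose of 200 μg per mL, whereas the deposited array is named for 300 μg per mL. The paper of the study gives 300 μg per mL for its microarray experiment. It reports a loss of cell viability at that dose, which it calls slight. Each RNA was labelled with Cy3 and hybridised to 1 array of the Agilent SurePrint G3 human design.

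The checkpoint keeps a dividing cell from separating its chromosomes before every kinetochore is attached to the spindle. The kinases TTK and BUB1 act at unattached kinetochores, where MAD1L1 holds MAD2L1 and converts it to the form that binds CDC20. MAD2L1, BUB1B and BUB3 together with CDC20 make up the mitotic checkpoint complex, which blocks the APC/C. Once the block is lifted, CDC20 activates the APC/C, UBE2C and its partner UBE2S build the ubiquitin chains, and securin (PTTG1) and cyclin B are destroyed. FBXO5, also called EMI1, inhibits the APC/C earlier, in S and G2 phase. Most of these transcripts are known to be made mainly in G2 and M phase, so their amount in a culture depends on how many cells are dividing. In RNA from whole cultures, fewer dividing cells and less RNA per dividing cell cannot be told apart.

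All 11 probes were well above background on both arrays, so that the filter on dim probes removed no member with a probe. Their processed signals lay between 3517 and 74213, against local background medians of 24.0 to 58.0, and none was saturated or marked as an outlier. Each of the 11 probes has 1 spot on each array. The error that can be given for a member is therefore the error the scanner software assigns to a spot, 10.0% of the signal, which comes to ±0.20 on the log2 ratio of HTE over DMSO for every member. Across the array, 688 probes with at least 5 usable spots above background on both arrays had a median SD of the log2 ratio of 0.051. Neither error holds the variation between cultures. With 1 array per condition no test was possible, no p value is given, and effects of HTE and other differences between the cultures cannot be told apart. Signals were scaled to the 75th percentile of each array, 4020 for DMSO and 3570 for HTE, and a level below is the log2 signal relative to it. All 9 hepatocyte markers examined were above background, with ALB at signals of 149257 and 150241 in DMSO and HTE. Their log2 ratios ran from -0.36 for FGB (5280 and 3643) to 0.32 for AHSG (69253 and 76866), with 2 below 0 and 7 above 0. Of 12 markers of leukocytes, fibroblasts and endothelial cells, 6 were not well above background on either array (CD3E, ITGAM, COL1A2, LUM, CDH5 and KDR), and the signals of the other 6 summed to 8847 in DMSO and 8852 in HTE. Of these 6, CD68 (4138 and 5069.6) and PTPRC (2351 and 2297) make up most of the sum. Single markers differed more, with log2 ratios of -1.82 for PECAM1 (804 and 203), -0.63 for VWF and COL1A1, 0.17 for PDGFRB and 0.46 for CD68, and their part in the results was not tested.

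**Figure D1:**
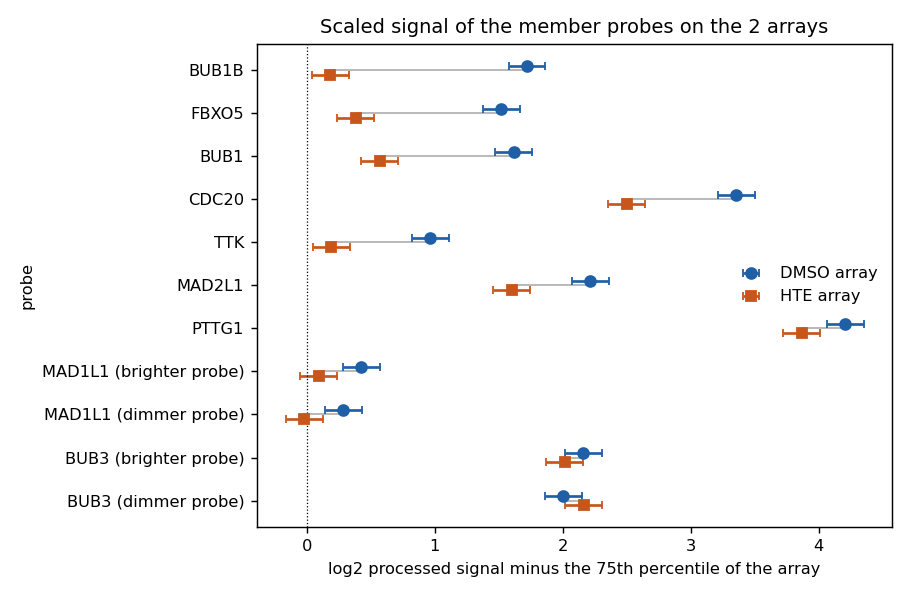
Scaled log2 signal of each member probe on the DMSO array (circles) and the HTE array (squares), with the error of the spot as bars and 0 at the 75th percentile of the array. The squares lie to the left of the circles for 10 of the 11 probes, and the bars of the pair overlap for both BUB3 probes alone.

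All 9 measured genes were lower after HTE at their brighter probe, and 3 of them, BUB1B, FBXO5 and BUB1, were at least 2-fold lower. The median log2 ratio over the 9 genes was -0.78, a 1.71-fold lower signal, beside a median of 0 over all 23752 genes and unnamed transcripts. Among all of these, 720 (3.03%) were at least 2-fold lower, and among the 9169 with a mean level at or above the 75th percentile, where all of the members lie, 157 (1.71%) were. A ratio below 0 was found for 50.5% of the 21000 genes above background on both arrays and for 52.4% of the 9169 brighter ones, whose median was -0.018. The member ratios ran from -1.54 for BUB1B to -0.14 for BUB3. Of the 9 ratios, 6 were larger than 2 times the spot error, and those of PTTG1, MAD1L1 and BUB3 were not.

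Of the checkpoint genes among the members, BUB1B and BUB1 had the lowest ratios, and TTK, the other kinase, did not reach 2-fold. BUB1B, which as BUBR1 holds CDC20 in the mitotic checkpoint complex, had a signal of 13240.4 in DMSO and 4055 in HTE. This is a log2 ratio of -1.54 ± 0.20, a 2.90-fold lower signal, and 0.63% of all genes had a ratio as low or lower. BUB1, the kinase that marks centromeres for the passenger complex and recruits BUB1B, had 12320.2 in DMSO and 5292 in HTE. Its log2 ratio of -1.05 ± 0.20 lay just past the 2-fold line, with 2.62% of all genes as low or lower. TTK, the kinase also called MPS1 that starts checkpoint signalling, had signals of 7844 and 4070.4, with a log2 ratio of -0.78 ± 0.20 (1.71-fold lower).

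MAD2L1, the inhibitor that binds CDC20 after its conversion at MAD1L1, had a signal of 18640 in DMSO and 10814 in HTE, a log2 ratio of -0.61 ± 0.20 (1.53-fold lower). For MAD1L1, the receptor that holds MAD2L1 at the kinetochore, 2 probes of the same transcript gave nearly the same value. The brighter had signals of 5394 and 3803 (-0.33 ± 0.20) and the dimmer 4892 and 3517 (-0.30 ± 0.20), so that each was within 2 times its spot error of 0. The gap of 0.028 between these 2 probes was small for the array, since 91.8% of the 3053 genes with 2 probes above background had probes at least that far apart.

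BUB3, the WD40 adaptor that brings BUB1 and BUB1B to the kinetochore, was the member with the smallest difference, and its probes pointed in opposite directions. The probe for transcript NM_004725 had 17966 in DMSO and 14431 in HTE, a log2 ratio of -0.14 ± 0.20. The probe for NM_001007793, another transcript of the gene, had 16112 and 15994, a log2 ratio of 0.16 ± 0.20 that is -0.011 before scaling. Both ratios were smaller than the spot error, and the probes were almost equally bright, so the direction of BUB3 depends on which of them is read. The gap of 0.31 between them is an ordinary one, with 37.7% of the genes with 2 probes at least as far apart and a median gap of 0.22.

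Of the 3 members FBXO5, CDC20 and PTTG1, FBXO5 had the lowest ratio. BUB1B, which acts on the APC/C within the mitotic checkpoint complex, was lower (-1.54). FBXO5, the inhibitor that lets cyclins accumulate before mitosis, had a signal of 11533 in DMSO and 4646 in HTE, a log2 ratio of -1.14 ± 0.20 (2.20-fold lower), with 1.95% of all genes as low or lower. CDC20, the activator that is also the target of the checkpoint, had 41117 and 20169, a log2 ratio of -0.86 ± 0.20 (1.81-fold lower), and was the gene nearest to the 2-fold line without reaching it. PTTG1, the securin that restrains separase until the APC/C removes it, had the brightest probe of the set, 74213 in DMSO and 52084 in HTE. Its log2 ratio was -0.34 ± 0.20, within 2 times the spot error of 0. The probe for PTTG2, a copy of PTTG1 with nearly the same sequence, had 59199 and 39359 (log2 ratio of -0.42), and whether the probes of these copies read each other's RNA was not tested.

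**Figure D2:**
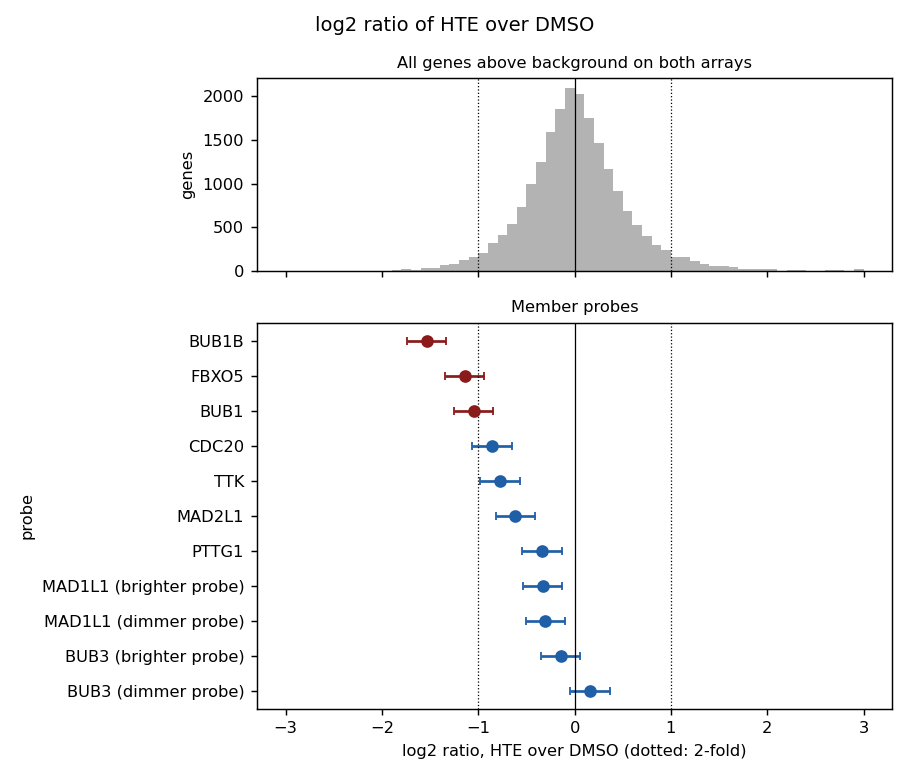
The upper panel counts the 21000 genes above background on both arrays by their log2 ratio of HTE over DMSO, with values beyond 3 placed in the end bins. The lower panel shows the 11 member probes on the same axis with the spot error, where BUB1B, FBXO5 and BUB1 lie left of the dotted 2-fold line and the dimmer BUB3 probe alone lies right of 0.

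Ordered by ratio, the genes ran BUB1B, FBXO5, BUB1, CDC20, TTK, MAD2L1, PTTG1, MAD1L1 and BUB3. The step from BUB1B to FBXO5 was 0.40, larger than its spot error of 0.29 but less than 2 times that error. The other steps, from 0.0067 to 0.27, were smaller than this error. By the limit of 2 errors used above, none of these neighbours can be ordered on the arrays. The position of the spots was examined as well. The median ratio of the spots around each member lay between -0.11 and 0.13, and with it subtracted 9 of 9 genes were below 0 and 3 were at least 2-fold lower.

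The counts depended on the scaling of the arrays. Without scaling CDC20 was past 2-fold too (-1.03), for 4 of 9 genes beside 5.09% of all genes. The E1A spike-in probes had higher signals with HTE, and scaling by them placed 9 of 9 members past 2-fold, but also 56.8% of all genes. All genes then had a median of -1.07 and the members one of -1.86, a difference of -0.79 (members minus all genes). Over all genes, 63.4% of those past 2-fold were higher after HTE with the 75th percentile and 42.2% without scaling.

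**Figure D3:**
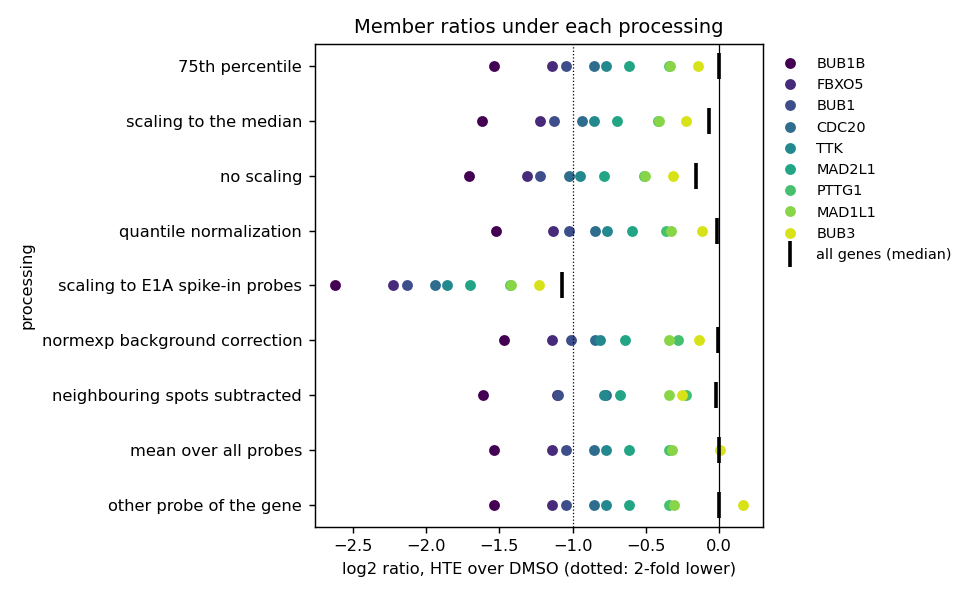
Log2 ratio of HTE over DMSO of each member (coloured points) and the median of all genes (black bar) for 9 ways of processing, with the dotted line at 2-fold lower. The points move with the black bar under each scaling, and BUB3 alone crosses 0, with the mean over its probes (0.0078) or its dimmer probe (0.16).

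The rest of the machinery was set beside the members with lists of other pathway genes. The 14 core subunits of the APC/C, which make up the enzyme that the members regulate, had a median log2 ratio of -0.13. At the brightest probe none of the 14 was past 2-fold in either direction, 10 were below 0, and they ran from CDC23, a scaffold subunit (-0.53), to ANAPC16 (0.27). The 7 probes of ANAPC1 differed, from -1.81 (signals of 373 and 92.0) to 0.27 (101 and 108). Its brightest gave -0.45 and the next brightest 0.25 (10468 and 11060). With spike-in scaling 14 of 14 were below 0 and 10 of 14 at least 2-fold lower, with a median of -1.22. Of 3 partners of the enzyme, UBE2S, which extends the chains that UBE2C starts, had a log2 ratio of -0.37 and UBE2D1, another initiating enzyme, -0.11. FZR1, the activator that takes over from CDC20 late in mitosis, was higher (0.47, and -0.61 with spike-in scaling).

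Of 14 further checkpoint and kinetochore factors, 13 were lower and 6 were at least 2-fold lower, with a median of -0.91. KNL1, the scaffold to which BUB1 and BUB3 bind, had the lowest ratio at its brighter probe (-1.45, signals of 6359 and 2074), but its dimmer probe (124 and 89.6) gave -0.22 and the mean over both -0.83, which ends its call and its rank. The microtubule-binding NDC80 complex had ratios of -1.42 for SPC25, -1.12 for NUF2 and -1.11 for NDC80, with SPC24 at -0.68. KNTC1 (-1.35) and ZWILCH (-1.003, but -0.99 with quantile normalization or normexp correction and -0.91 with neighbouring spots subtracted), which with ZW10 (-0.84) recruit MAD1L1 and MAD2L1, were also past 2-fold. MAD2L1BP, which takes MAD2L1 off the checkpoint complex together with the ATPase TRIP13, was the only one higher (0.38, and -0.70 with spike-in scaling), while TRIP13 had a ratio of -0.70.

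The 19 other proteins that the APC/C marks for destruction had the lowest median of the lists, -1.13. All 19 were lower and 11 were at least 2-fold lower. RRM2, the small subunit of ribonucleotide reductase, was lowest (log2 ratio of -2.14), followed by the licensing factor CDC6 (-1.77), the kinase PLK1 (-1.74) and cyclin A2, CCNA2 (-1.73). The probes of RRM2 (signals of 909 in DMSO and 183 in HTE) and CDC6 (812 and 212) were dimmer than any member probe. The spindle factor TPX2 (-1.48), the kinases AURKA (-1.37) and NEK2 (-1.28), the ubiquitin ligase subunit SKP2 (-1.35), the kinesin KIF22 (-1.25), the cytokinesis protein ANLN (-1.13) and CDCA3 (-1.01) were past 2-fold as well. For CDCA3 this call was lost with quantile normalization (-0.97) and with neighbouring spots subtracted (-0.88). The ratio nearest to 0 was that of GMNN, the inhibitor of licensing (-0.32). CCNB1 and CCNB2, the B cyclins whose loss ends mitosis, were at -0.91 and -0.84.

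At their brightest probes, the cohesin subunits, which act downstream of PTTG1, had ratios closer to 0 than separase, the protease that PTTG1 restrains. All 11 genes of this list were lower, with a median of -0.23, and 10 of 11 were with the other probe of a gene or with neighbouring spots subtracted. SGO1, the protector of centromeric cohesion, was past 2-fold at its brighter probe (-1.07), but not at its dimmer one (-0.99) or with neighbouring spots subtracted (-0.95). The number past 2-fold was 1 of 11, and 2 with scaling to the median or normexp correction, 3 without scaling and 11 with spike-in scaling. ESPL1, which encodes separase, had a ratio of -0.94. The cohesin subunits RAD21, SMC1A, SMC3, STAG1 and STAG2 lay between -0.41 and -0.064 at their brightest probes. Their other probes ran from -0.81 for SMC1A (signals of 2188 and 1111) to 0.074 for STAG2 (8596 and 8039). PDS5B, of the same list, had a ratio of -0.84. For comparison, 13 reference genes had a median of 0.089, with none past 2-fold in either direction. They ran from -0.49 for TBP to 0.43 for GAPDH, a range that also holds the ratios of PTTG1, MAD1L1 and BUB3.

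**Figure D4:**
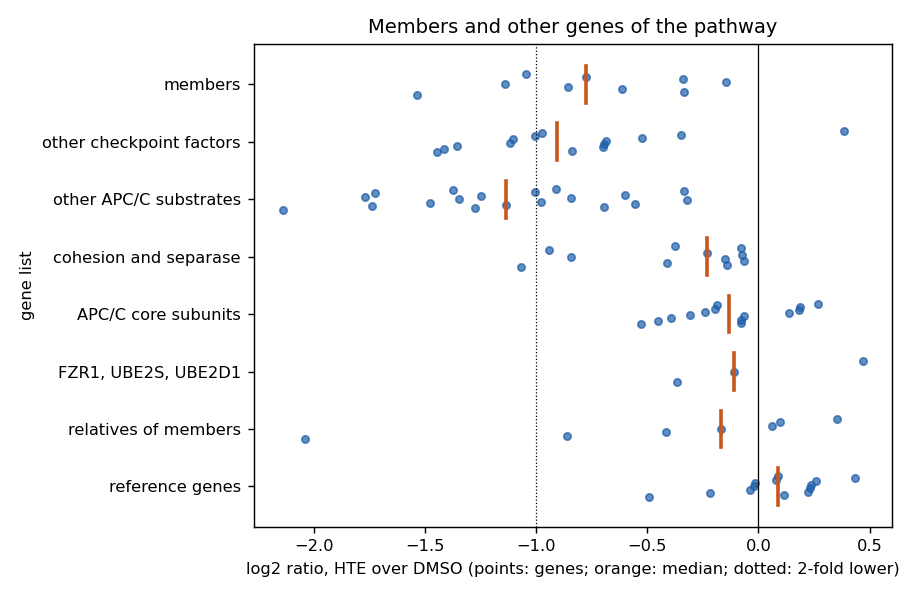
Log2 ratio of HTE over DMSO of each gene (points) in the members and 7 lists of other genes, with the median of the list as an orange bar. The medians of the members (-0.78), the other checkpoint factors (-0.91) and the other APC/C substrates (-1.13) lie furthest left. Those of the APC/C core subunits (-0.13) and the reference genes (0.089) lie right of them. Single points of these lists overlap.

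Promoters were read because the members are cell cycle genes whose ratios were mostly lower. Cell cycle genes with a peak in G2 and M phase are known to carry a CHR element, bound by the DREAM and MuvB complexes, often near a CCAAT box bound by NF-Y. RefSeq promoters, from 250 bases before to 50 after the start, were found for 7 of the 10 members, and BUB3, TTK and UBE2C had no entry. Both strands were searched for CHR letters (TTTGAA or TTCGAA), which 16.4% of all 35116 promoters hold, and for CCAAT, which 34.6% hold. The letters TTTGGCGC or TTTCGCGC or TTTCCCGC or TTTGCCGC, taken for E2F, are in 3.31% of all promoters and in none of the 7 members. The 5 stretches below run from 150 bases before to 30 after the start. They belong to the 3 members past 2-fold, to CDC20 next to them, and to MAD1L1, whose ratio was within 2 times the spot error of 0, and capitals mark CHR and CCAAT letters on either strand.
BUB1B, GRCh38.p14 chr15:40160919-40161098, plus strand: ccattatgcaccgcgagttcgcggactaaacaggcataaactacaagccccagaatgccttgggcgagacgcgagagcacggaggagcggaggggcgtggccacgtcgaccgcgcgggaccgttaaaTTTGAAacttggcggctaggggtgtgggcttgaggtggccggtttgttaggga
FBXO5, GRCh38.p14 chr6:152983012-152983191, minus strand: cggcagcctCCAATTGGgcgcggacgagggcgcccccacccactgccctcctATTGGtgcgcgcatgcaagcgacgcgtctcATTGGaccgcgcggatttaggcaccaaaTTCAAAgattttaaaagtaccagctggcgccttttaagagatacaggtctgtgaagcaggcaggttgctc
BUB1, GRCh38.p14 chr2:110678034-110678213, minus strand: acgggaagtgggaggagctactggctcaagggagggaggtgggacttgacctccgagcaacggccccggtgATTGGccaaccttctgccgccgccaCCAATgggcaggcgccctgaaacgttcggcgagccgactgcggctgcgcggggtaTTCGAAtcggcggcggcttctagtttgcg
CDC20, GRCh38.p14 chr1:43358831-43359010, plus strand: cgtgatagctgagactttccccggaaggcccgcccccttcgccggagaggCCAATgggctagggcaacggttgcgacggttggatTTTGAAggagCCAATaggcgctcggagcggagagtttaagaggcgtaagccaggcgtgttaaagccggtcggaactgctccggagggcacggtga
MAD1L1, GRCh38.p14 chr7:2232916-2233095, minus strand: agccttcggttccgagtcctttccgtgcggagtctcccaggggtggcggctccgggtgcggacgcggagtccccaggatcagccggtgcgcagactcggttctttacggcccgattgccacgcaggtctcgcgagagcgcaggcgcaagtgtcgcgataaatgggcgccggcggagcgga

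CHR letters were in 5 of the 7 members with a promoter (BUB1, BUB1B, CDC20, FBXO5 and MAD2L1), beside 19.5% of all genes when a gene with several starts counts once. CCAAT letters were also in 5 of the 7 (BUB1, CDC20, FBXO5, MAD2L1 and PTTG1), beside 39.7% of all genes. Both were in 4 of the 7 members and in 7.85% of all genes, in 4 of 12 other checkpoint factors, in 5 of 17 other APC/C substrates, in 3 of 10 cohesion and separase genes, in 1 of 7 relatives of the members, and in none of the 14 core subunits of the APC/C or the 9 reference genes. CCAAT letters, with or without CHR, were in 7 of 10 cohesion and separase genes, 6 of 7 relatives and 5 of 9 reference genes. CHR letters, with or without CCAAT, were in 8 of 12 other checkpoint factors, 7 of 17 other APC/C substrates and 4 of 10 cohesion and separase genes. They were in 3 of 14 core subunits, 1 of 7 relatives and 0 of 9 reference genes. Counted from the start, the CHR letters of CDC20 begin at position -65, between CCAAT letters at -100 and -55, and those of BUB1B begin at -23. CDC20 has CHR letters on the other strand as well, at -178, outside the stretch printed. FBXO5 has 2 listed starts, and only the promoter printed holds either motif, with overlapping CCAAT letters on both strands at its 5′ end. MAD1L1, with a log2 ratio of -0.33, held none of these letters, and PTTG1, with -0.34, held CCAAT alone. BUB1B, with the lowest ratio of the members (-1.54), held CHR letters but no CCAAT. MAD2L1, with -0.61, held CHR letters at position 25 and CCAAT letters at -229, far from each other. The CHR letters of BUB1, with -1.05, begin at position 2. The CHR letters of both genes thus lie after the start, inside the transcript. A promoter was counted as holding both motifs at any distance between them within the window. These are matches of letters in 1 window, and whether any of them is bound in HepG2 cells was not tested. A relation between the letters and the ratios of the members was not tested either.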

How the data were processed

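Gene expression of HepG2 cells was measured on 1 array for DMSO and 1 for HTE. The authors deposited Agilent Feature Extraction output (version 11.5.1.1 in the header, 10.7 in the submitters' processing notes), whose processed signal is an intensity, background-subtracted and detrended but not scaled between arrays. The deposited flags mark spots as above background, saturated or outlying. The authors' methods give a 2-fold cutoff and name no scaling.

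Control and outlier spots were left out (440 and 459 outliers of 58717 spots), log2 signals were reduced by the 75th percentile of the array, and spots of a probe were averaged. Of these spots, 60.6% were well above background for DMSO and 56.6% for HTE. Probes were kept if the share of their spots flagged as well above background reached 0.5 on 1 array. A probe dim on 1 array entered as a bound, against the lowest signal above background or its own, whichever was higher, and 2752 genes carry such a bound, of which 1272 came out at 0. Probes were named through RefSeq accessions in the GRCh38.p14 table (28174 of 50599), and the brightest probe stood for a gene. The header names another build, and the coordinates printed are those of the RefSeq promoter table. The error of a ratio combines the software's errors of both spots.

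The members and lists were chosen with earlier results of these data known, and no list is independent evidence. Named genes were all members, and in each other list the lowest, the highest and those past 2-fold. Further list genes were named after their values were seen. Protein motifs were not analysed here. The alternatives were 4 scalings, normexp background correction (offset 50, run on the median signal), subtraction of neighbouring spots (within 3 rows and columns), other treatments of outlier and dim probes, other probes of a gene and cutoffs of 1.5-fold and 3-fold. The steps were tested on simulated data. Computations used limma 3.58.1 in R 4.3.3, and pandas 2.3.3, numpy 2.4.6 and matplotlib 3.10.9 in Python 3.11.15.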

Additional observations from a re-analysis of the deposited data

How the results depend on the processing

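The median over the 9 members stayed below 0 under every processing run, from -1.86 with spike-in scaling to -0.77 with quantile normalization. It was -0.86 with scaling to the median and -0.95 without scaling, and each other alternative moved it less than the SD of replicate spots. The number of members at least 2-fold lower was 9 with spike-in scaling, 6 with a 1.5-fold cutoff (10.5% of all genes) and 0 with a 3-fold cutoff (0.54%), against 3, and it was 4 without scaling. Of single members, BUB3 alone changed sign, at 0.0078 with the mean over its probes and 0.16 with its other probe. Genes at least 2-fold lower among all genes numbered 720, against 13492 with spike-in scaling, 1209 without scaling, 468 with normexp correction, 1320 with the own value of dim probes, 1870 without a filter on dim probes, 2505 at 1.5-fold and 129 at 3-fold. The causes were not tested. No paired analysis was possible because each condition has 1 array. Signal over background does not limit the members, whose signals were at least 97.5 times their local background, but their number of spots, 1 per probe and array, does.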

Other observations

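Genes related to the members by sequence or name differed in their ratios. FBXO43, the meiotic relative of FBXO5 also called EMI2, had a signal of 908 in DMSO and 196 in HTE, a log2 ratio of -2.04. UBE2T, a ubiquitin-conjugating enzyme of the Fanconi anemia pathway, had -0.86. MAD2L2, the relative of MAD2L1 that acts in DNA repair, had 0.098, which is -0.073 without scaling. PTTG1IP, which binds the PTTG1 protein, had 0.35 (2 probes, the brighter given), and UBE2D2 and UBE2D3 had -0.17 and 0.061. CDC20B was above background on neither array.

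Over all measured genes with a RefSeq promoter, 56 of the 796 with both CHR and CCAAT letters (7.04%) were at least 2-fold lower, against 253 of the other 11296 (2.24%). These shares describe 2 arrays only, and the members are among the genes counted.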
